A study of Mus musculus with 6 samples.

Results

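Sterol synthesis was examined in adrenal glands of 2 mouse strains through 9 of its enzymes: Hmgcs1, Idi1, Fdps, Fdft1, Sqle, Lss, Cyp51, Dhcr7 and Sc5d. The members are all probe sets of the array whose annotation names 1 gene and that gene is among the 9. A probe set is a group of short probes that query 1 transcript. The rule gave 13 probe sets of 12488, all 9 genes included among the 8252 the array names this way, and 11 of these probe sets passed a filter on low values and were tested, again with every gene represented. The arrays measured RNA of whole adrenal glands of BPH, a hypertensive strain ("Blood Pressure High"), and of BPL, a hypotensive strain ("Blood Pressure Low"), with 3 arrays per strain. No treatment is named. Age, sex, the number of glands behind an array and whether the replicates come from separate animals are not given in the sources used here, so p-values measure only the spread between these samples, which may be technical.

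Cholesterol is built from acetyl-CoA in a long chain of reactions. The early steps make mevalonate and from it the isoprenoid units that are joined into farnesyl diphosphate, from which other products such as ubiquinone and the lipid anchors of proteins also branch off. The later steps join farnesyl units into squalene, close the rings to lanosterol and trim lanosterol to cholesterol. In most cells the genes of the whole chain are driven together by the transcription factor SREBP2 when membrane sterol runs low. In the adrenal cortex cholesterol is the precursor of all steroid hormones, and rodent cortical cells also take up much of it from lipoproteins.

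None of the 9 enzymes differed between the strains past the threshold, and they did not lie to one side. Dhcr7, which reduces 7-dehydrocholesterol to cholesterol, had 1.61 times the signal in BPH, and Fdps, which makes farnesyl diphosphate, had 1.53 times the signal in BPL, each without overlap between the strains' arrays. The arrays of the 2 strains overlapped for the other 7 genes. Of the 11 tested probe sets, 0 were called in limma at a Benjamini-Hochberg adjusted p under 0.05, against 2.52% of all 7293 tested probe sets. At an unadjusted p under 0.05 there were 3, with 19.3% of all tested probe sets. The 3 are those of Dhcr7 and Fdps. Of all tested probe sets 26.5% did not overlap between strains, 14.9% with BPH above and 11.6% with BPL above, so 1 member of 11 above and 2 of 11 below are near the background.

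Intensities are linear and were scaled by the authors to a common trimmed mean before deposit. Differences are log2 values, BPH minus BPL, in which low intensities were raised to a floor of 201.3, and this understates the change of dim probe sets. Single-gene adjusted p-values are from limma over all tested probe sets. The level of a gene in a whole gland is read in bulk, where fewer cells of a type and less RNA per cell cannot be told apart.

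The median intensity of an array lay between 1003.4 and 1114.6. Markers of the steroid-producing cortex were bright on every array, with Star, which carries cholesterol into mitochondria, between 86782 and 100622 at its brightest probe set. The summed level of the 8 of 9 cortex markers with a probe set ran from 665623 to 779526 in BPH and from 668903 to 734311 in BPL. A pair of arrays carried skeletal muscle transcripts, with a summed level of 10 of 10 muscle markers of 160272 on BPH 1 and 175237 on BPL 2, against 10005 to 24894 on the other arrays. The summed level of 8 of 10 brown fat markers did not overlap, from 40481 to 68947 in BPH and from 105973 to 313211 in BPL, where BPL 2 was highest. Of the 7 tested brown fat genes 2 were called lower in BPH, against 0.96% of all tested probe sets. General fat cell markers (8 of 10) overlapped, from 180207 to 216984 in BPH and from 150049 to 254170 in BPL. Markers of chromaffin cells (8 of 9) ran from 244545 to 305513 in BPH and from 132802 to 273274 in BPL. No marker was listed at 0. The arrays were washed and stained on 2 fluidics stations. BPH 1 and BPH 2 ran on station 2, and BPH 3 and the 3 BPL arrays on station 1.

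SREBP2 recognises a short sterol regulatory element, often close to a CCAAT box bound by the factor NF-Y. Promoter sequence, 250 bases before to 50 after a start, was matched by symbol in RefSeq's GRCm38.p6 tables for 6 of the 9 genes: Hmgcs1, Idi1, Lss, Cyp51, Sc5d and Dhcr7, with 8 starts in all. Fdps, Fdft1 and Sqle were not matched. The letters TCACNCCAC, a core of the element, were searched on both strands and were found in 1 of the 8 windows, that of Hmgcs1, and in 1.24% of all 32851 promoters. The CCAAT box (CCAAT, or ATTGG on the other strand) was found in 6 of the 8, at least once for each of the 6 genes, and in 37.4% of all promoters. The promoters of Hmgcs1, the first enzyme of the set, and of Dhcr7, the last and the one with the largest difference, are shown 5′ to 3′ with these matches in capitals. That of Hmgcs1 lies at chr13:119690101-119690400 on the plus strand, and the TCACNCCAC match begins at -137 relative to the start. That of Dhcr7 lies at chr7:143829964-143830263 on the plus strand and is the 1 of its 3 listed starts with CCAAT boxes, which begin at -85 and -49.
Hmgcs1: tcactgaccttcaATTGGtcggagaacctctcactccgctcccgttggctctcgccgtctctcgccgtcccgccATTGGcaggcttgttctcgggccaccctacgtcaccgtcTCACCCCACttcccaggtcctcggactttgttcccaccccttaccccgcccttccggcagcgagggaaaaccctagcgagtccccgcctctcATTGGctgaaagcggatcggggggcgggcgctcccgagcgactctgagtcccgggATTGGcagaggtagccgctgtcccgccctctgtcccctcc
Dhcr7: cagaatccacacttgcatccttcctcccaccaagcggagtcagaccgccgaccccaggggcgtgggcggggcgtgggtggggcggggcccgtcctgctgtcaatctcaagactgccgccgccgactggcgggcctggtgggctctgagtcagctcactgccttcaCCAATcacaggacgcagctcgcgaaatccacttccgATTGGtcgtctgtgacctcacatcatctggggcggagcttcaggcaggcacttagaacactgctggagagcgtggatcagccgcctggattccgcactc
A match is a run of letters and says nothing of binding in these glands.

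Hmgcs1 encodes the cytosolic synthase that makes HMG-CoA, a precursor of mevalonate. Its intensity was 6157, 11294.5 and 10145 on BPH 1, 2 and 3, and 9648.5, 13186 and 10598 on BPL 1, 2 and 3. BPH 1 lay well below the other 5 arrays, which overlapped. The strain means were 9199 ± 2696 for BPH and 11144 ± 1831 for BPL (SD, n = 3), which differed by -0.31 in log2 (SE 0.23, 95% interval -0.82 to 0.20, adjusted p = 0.484). Without BPH 1 it was -0.05.

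Idi1 interconverts the 2 isoprenoid units, isopentenyl and dimethylallyl diphosphate. It read 3158, 6732 and 6794 on the BPH arrays and 3856, 5211 and 5569 on the BPL arrays. BPH 2 and BPH 3 were above every BPL array and BPH 1 was below every one. Over all arrays Idi1 differed by 0.12 in log2 (SE 0.29, adjusted p = 0.853). The value without BPH 1 was 0.49 (adjusted p = 0.261; the alternatives gave 0.246 to 0.973).

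Fdps joins the isoprenoid units into farnesyl diphosphate, the branch point toward sterols, ubiquinone and prenylated proteins. It has 4 probe sets on the array, and both bright ones stood lower in BPH. The brighter read 8362, 11805 and 10359 on the BPH arrays and 14187, 14492 and 17872 on the BPL arrays, with every BPL array above every BPH array. The strain means were 10175 ± 1729 for BPH and 15517 ± 2045 for BPL (SD, n = 3), which differed by -0.62 in log2 (SE 0.16, 95% interval -0.97 to -0.26, adjusted p = 0.0789). The other, whose suffix (f) Affymetrix gives to probe sets that may also detect related sequences, read 6712, 9999 and 7776 in BPH and 10523, 11732 and 14212 in BPL. Its difference was -0.58 (SE 0.17, adjusted p = 0.114), again with no overlap. The log2 intensities of the 2 probe sets followed each other with r = 0.983 over the 6 arrays, which they share, so the second adds a probe and no sample.

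The 2 dim Fdps probe sets did not pass the filter and were not tested. One read 707.5, 597.2 and 213.1 in BPH and 196.7, 193.6 and 243.2 in BPL, so that BPH 1 and BPH 2 stood above the other 4 arrays, which lay near the floor. The other lay between 70.9 and 324.1, with 3 arrays below the floor.

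The lower Fdps signal in BPH stood beside the lower brown fat markers. Within BPL the order differed, since Fdps was highest on BPL 3 (17872 at the brighter probe set), where the brown fat sum was lowest of the strain (105973), and BPL 2, with the highest sum (313211), read 14492. The part of brown fat in the difference was not tested. Without BPH 1 the difference there was -0.48. Within station 1, where BPH 3 is the only BPH array and is taken to vary like the others, it was -0.575, and without both arrays that carried muscle transcripts it was -0.53.

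**Figure D1:**
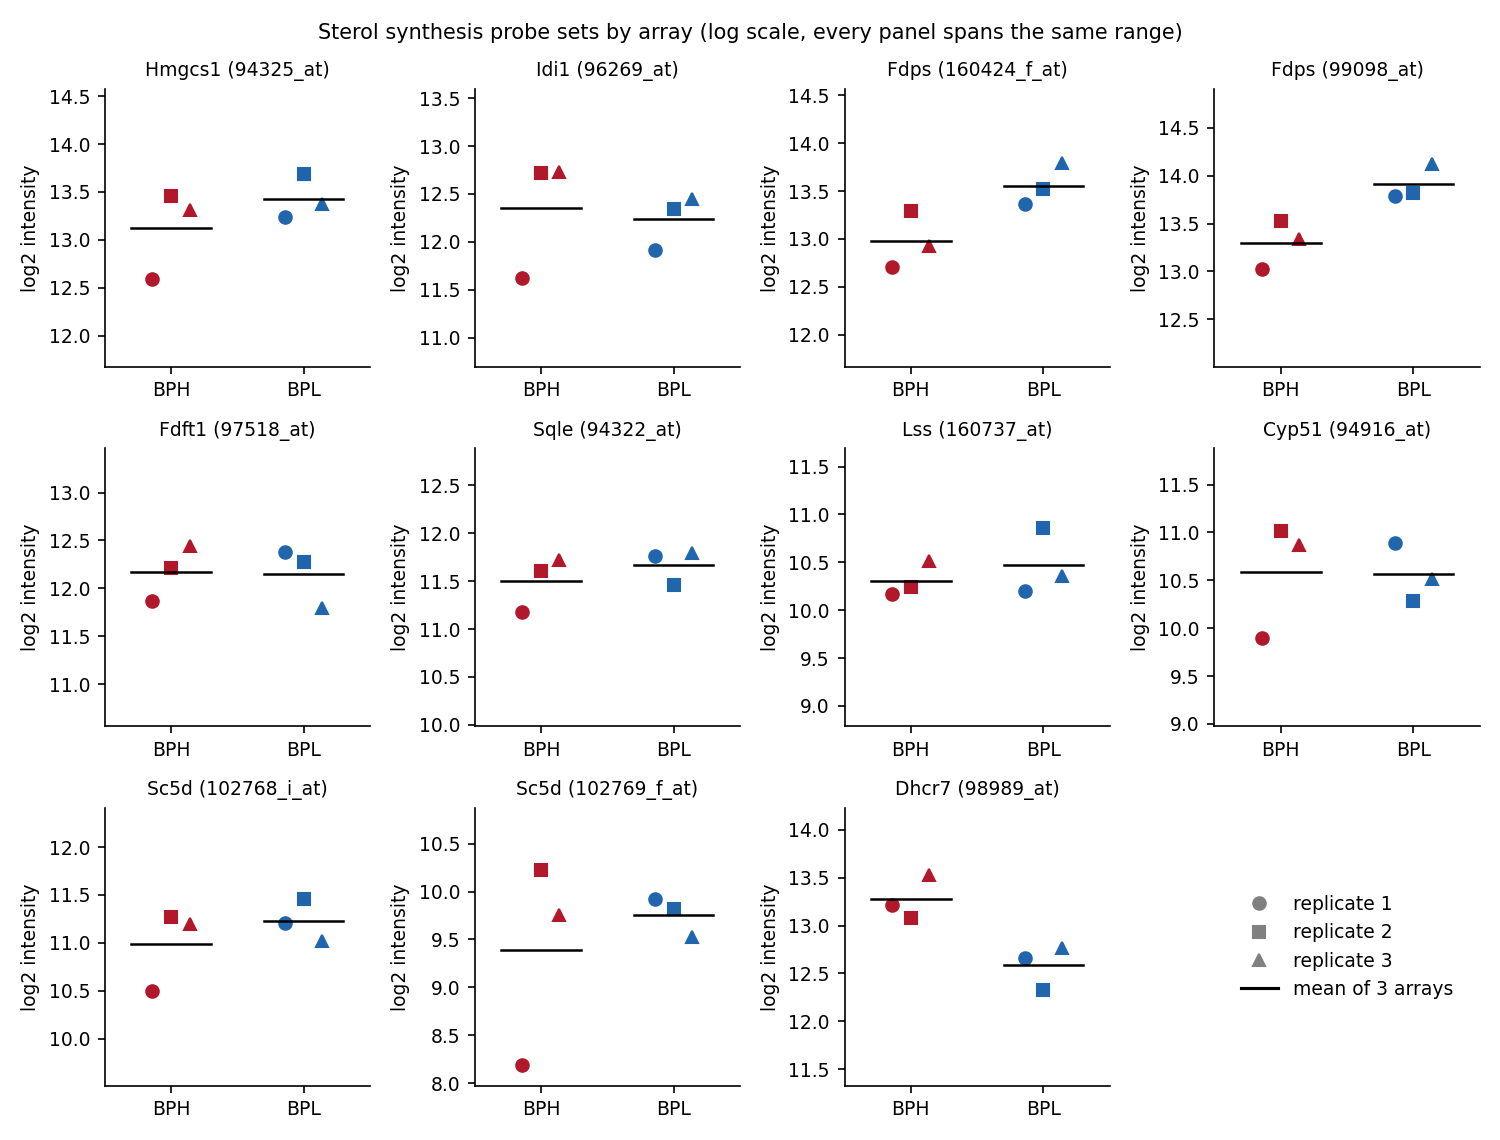
Log2 intensity of the 11 tested probe sets of the 9 enzymes by strain, 1 point per array (red BPH, blue BPL, symbol for the replicate number) and a line at the mean of 3 arrays; all panels span the same log2 range. BPH and BPL points separate for Dhcr7 and both Fdps probe sets and overlap in the other 8 panels, and BPH 1, the red circle, is the lowest point in 9 of the 11.

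Fdft1, the squalene synthase, is the first step committed to sterols. It read 3729, 4754 and 5549 in BPH and 5310.3, 4954 and 3558 in BPL, so that both strains covered nearly the same range. In log2 they differed by 0.02 (SE 0.20, 95% interval -0.42 to 0.47, adjusted p = 0.959). Sqle, the squalene epoxidase and a second control point of the pathway, read 2311, 3124 and 3369.8 in BPH and 3476, 2812 and 3540.4 in BPL. Its difference was -0.17 (SE 0.18, 95% interval -0.58 to 0.24, adjusted p = 0.638), with -0.01 without BPH 1 and -0.28 without BPH 3 or BPL 2. Lss, which closes the rings to lanosterol, read 1149.7, 1213.5 and 1457 in BPH and 1173, 1851 and 1313 in BPL, a difference of -0.16 (SE 0.23, adjusted p = 0.738). Its highest array was BPL 2 and the other 5 lay close together. The intervals of all 3 genes include 0 and reach at least 0.47 on the log2 scale in one direction, so differences up to that size are not settled by these arrays.

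Cyp51 removes the 14-methyl group of lanosterol and is a cytochrome P450. It read 950.6, 2063 and 1873 in BPH and 1899.7, 1248 and 1458 in BPL. BPH 1 was the lowest and BPH 2 the highest of the 6 arrays, and the difference was 0.03 (SE 0.31, 95% interval -0.67 to 0.73, adjusted p = 0.967). Without BPH 1 it was 0.38 (adjusted p = 0.477, the smallest over the alternatives, which reached 1.00).

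Sc5d, the lathosterol oxidase, makes 7-dehydrocholesterol, the substrate of Dhcr7, and has 2 tested probe sets. At the brighter the arrays read 1450.3, 2464 and 2344.5 in BPH and 2362, 2818 and 2077 in BPL. This is -0.24 in log2 (SE 0.23, adjusted p = 0.596), and 0.00 without BPH 1. At the dimmer, again with the suffix f, the values were 292.1, 1196 and 865.9 in BPH and 968, 905 and 736 in BPL, with a difference of -0.36 (SE 0.49, adjusted p = 0.728) that turned to 0.24 without BPH 1. The 2 probe sets followed each other over the 6 arrays (r = 0.921), and both were lowest on BPH 1.

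Dhcr7, the 7-dehydrocholesterol reductase, stood apart from its neighbours in the chain. It read 9496, 8656 and 11768 on the BPH arrays and 6455, 5135 and 6965 on the BPL arrays, and each BPH array was above each BPL array. The strain means were 9973 ± 1610.2 for BPH and 6185 ± 944.5 for BPL (SD, n = 3), which differed by 0.69 in log2 (SE 0.16, 95% interval 0.32 to 1.06, adjusted p = 0.0671). Ranked by p it was number 238 of the 7293 tested probe sets, of which 184 were called. It passed the threshold when BPL 3 was left out (0.78, adjusted p = 0.0451) and when only the brighter probe sets above the 60th percentile were tested (adjusted p = 0.0491). Its adjusted p lay between 0.0451 and 0.393 across all alternatives. Without BPH 1 the difference was 0.72, without both arrays that carried muscle transcripts 0.59, and within station 1 0.94. Within BPL, Dhcr7 was lowest on BPL 2 and highest on BPL 3, as was the sum of chromaffin markers (132802 and 273274). Within BPH the orders differed, with Dhcr7 highest on BPH 3 and the chromaffin sum on BPH 1. Over the strains all 8 tested chromaffin markers stood above 0, with a median difference of 0.69. In limma 4 had an unadjusted p under 0.05 (19.3% of all tested probe sets) and 0 were called (2.52% of all). The part of the gland's composition in the difference was not tested.

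**Figure D2:**
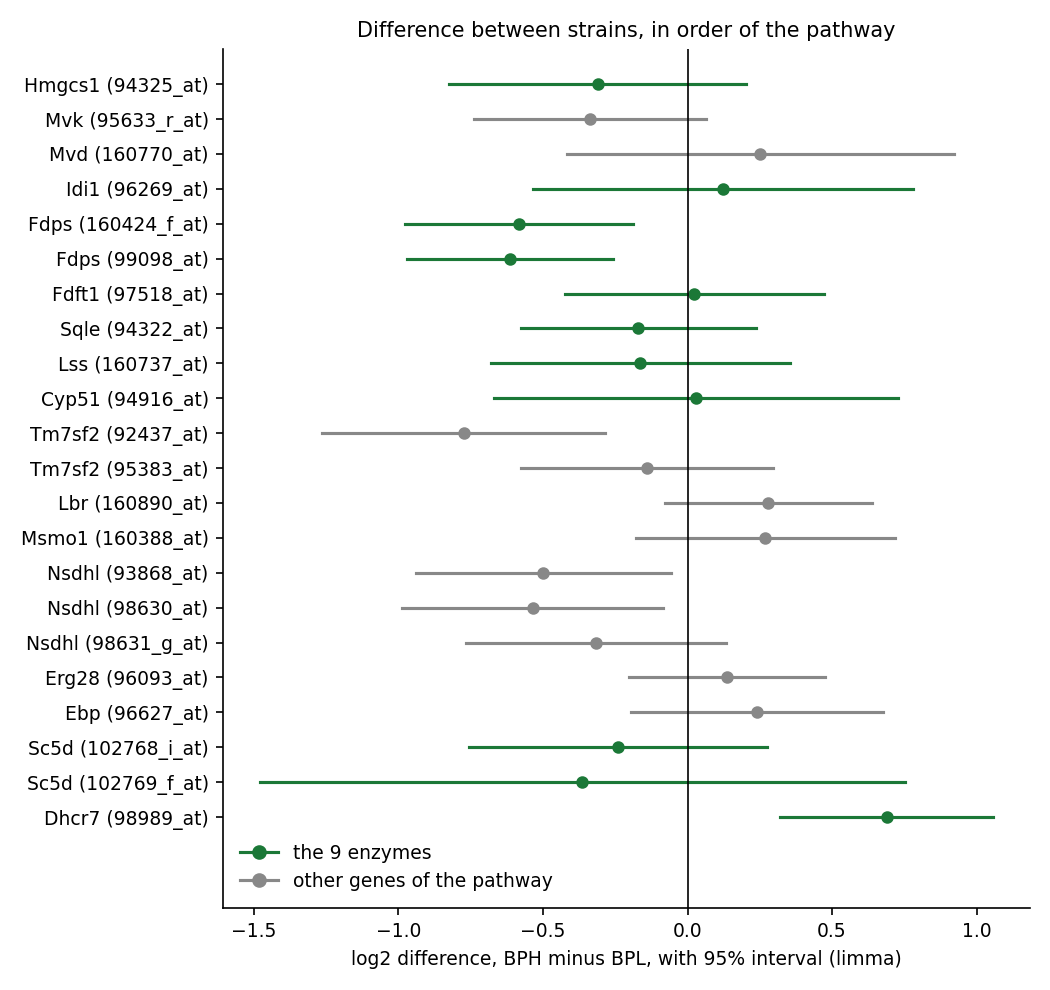
Log2 difference, BPH minus BPL, with its 95% interval from limma for every tested probe set of the 9 enzymes (green) and of 8 other genes of the pathway (grey), from the first step at the top to the last. The intervals of Dhcr7 (0.32 to 1.06) and of both Fdps probe sets lie on opposite sides of 0, and those of the other 8 green probe sets include it.

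The median spread of the enzymes was larger within BPH than within BPL, though not for each of them, as Lss spread more within BPL. The array BPH 1 gave the lowest value of the 6 for 9 of the 11 member probe sets, whereas it was lowest for 17.3% of all tested probe sets. The exceptions were Dhcr7, lowest on BPL 2, and Fdft1, lowest on BPL 3. Relative to each probe set's mean over the 6 arrays, the median member stood at -0.58 on BPH 1 on the log2 scale, and the median of all tested probe sets there was -0.01. On the other 5 arrays the member median lay between -0.03 on BPL 3 and 0.22 on BPL 2. Among the 11 tested probe sets of other pathway genes, BPH 1 was lowest for 4, and their median on BPH 1 was -0.21. The SD within BPH had a median of 0.29 over the members, against 0.17 over all tested probe sets, and all 11 were above the latter. Within BPL the members' median SD was 0.23, with 6 of 11 above the median of all. BPH 1 carried skeletal muscle transcripts, but so did BPL 2, where the members stood at 0.22. BPH 2, from the same fluidics station as BPH 1, stood at 0.15. The part of muscle tissue or station in the low values of BPH 1 was not tested.

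**Figure D3:**
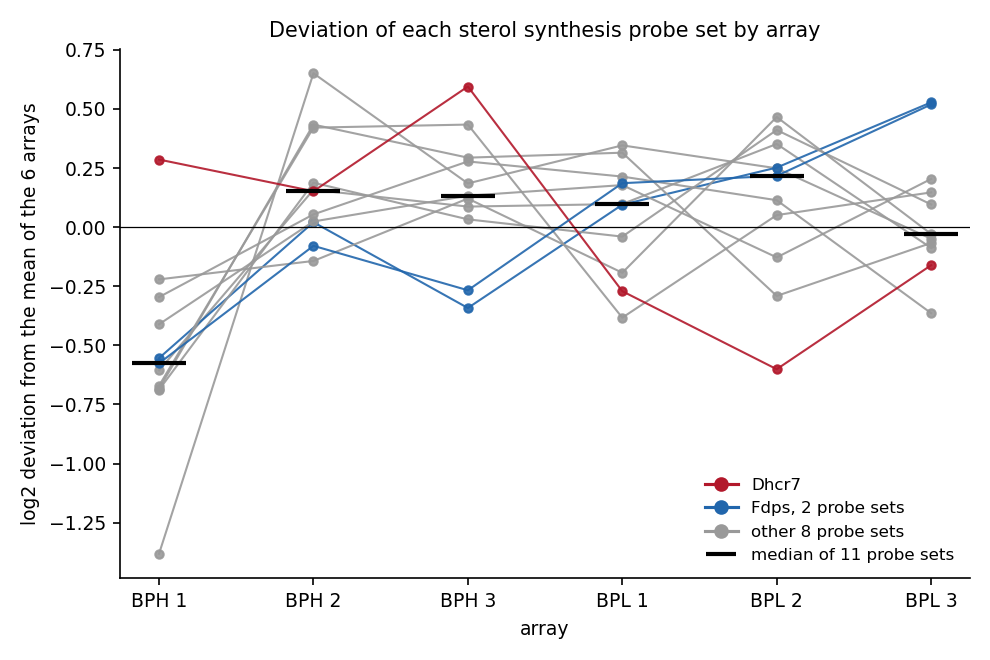
Log2 deviation of each of the 11 tested probe sets from its own mean over the 6 arrays, by array; lines join the values of 1 probe set and black bars mark the median. The median is -0.58 on BPH 1 and between -0.03 and 0.22 on the others, and Dhcr7 (red) and Fdps (blue) run in opposite directions between the strains.

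The summary over the members depended on which arrays entered it. The median difference of the 11 probe sets was -0.17, with 7 of 11 below 0, where 46.7% of all tested probe sets were below 0 and the median of all was 0.03. Without BPH 1 the median was 0.00 and 6 of 11 were above 0. It was -0.22 with 9 of 11 below 0 without BPH 2, -0.28 with 10 of 11 below 0 without BPH 3, and between -0.25 and -0.12 without 1 of the BPL arrays. Without both arrays that carried muscle transcripts it was 0.12 with 8 of 11 above 0, and within station 1 it was 0.04 with 7 of 11 above 0. The members of the set are not replicates, and no test was made over them.

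Among the 9 genes, each at its brightest probe set, the 36 pairwise correlations of log2 intensity over the 6 arrays had a median r of 0.43, and 7 were below 0. Without BPH 1 the median was -0.06, and 19 were below 0. Hmgcs1 and Sc5d were most alike (r = 0.953, and 0.739 without BPH 1). Dhcr7 and Fdps were most opposed over the 6 arrays (r = -0.718), which restates their strain differences. Without BPH 1 other pairs ranked first: Hmgcs1 and Lss were more alike (0.775) than Hmgcs1 and Sc5d, and Sqle with Sc5d (-0.930) and with Hmgcs1 (-0.925) were more opposed than Dhcr7 and Fdps (-0.738). These values describe 6 arrays on which all genes share depth and scaling.

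The genes outside the set whose pattern was most like a member's were found by Pearson r over the 6 arrays among the tested probe sets with 1 gene. They were Cul4a and Fgfr2 for Dhcr7 (r = 0.992 and 0.986), and Frg1 and Arpp19 for Fdps (0.980 and 0.977). For Hmgcs1 they were Ago2 and Qk, for Idi1 Prxl2a and Aak1, for Fdft1 Emc2 and Atp2a3, and for Sqle Sprr2i and Mtor. For Lss they were Nampt and Gdf5, for Cyp51 Tbxa2r and Blcap, and for Sc5d Ptprm and Serf1, with r from 0.961 to 0.997 over these 7 members. None belongs to the sterol pathway lists. With 6 arrays such values are common: 209 probe sets reached an r over 0.9 with Dhcr7 and 56 with Fdps.

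The rest of the pathway was read from 16 further genes, of which 9 had a probe set and 8 were tested. Genes of the list beyond these 9 were not analysed here. At the brightest probe set of each gene 0 of 8 were called in limma (2.52% of all tested probe sets) and 0 had an unadjusted p under 0.05 (19.3% of all). The median difference was 0.19, and with 1 array left out it ran from 0.05 (without BPL 2) to 0.24 (without BPL 3), with 0.12 without BPH 2. In the mevalonate branch, Mvk, the mevalonate kinase, had a difference of -0.34 (SE 0.18, adjusted p = 0.335), which ran from -0.43 to -0.19 with 1 array left out. A second Mvk probe set, with intensities from 148.4 to 267.0, did not pass the filter. Mvd, which makes isopentenyl diphosphate, the isoprenoid unit, had a difference of 0.25 (SE 0.29), which was 0.06 without BPL 2 and 0.54 without BPL 3. Of the 2 sterol C14-reductases, Lbr, which is also a protein of the nuclear envelope, read 1898, 1745 and 1985 in BPH and 1529, 1649 and 1458 in BPL. It was the 1 gene of the 8 whose arrays did not overlap at its brightest probe set, where 26.5% of all tested probe sets did not overlap. The difference of Lbr was 0.28 (SE 0.16, adjusted p = 0.369).

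The other C14-reductase, Tm7sf2, differed between its probe sets. At the brighter the difference was -0.14 (SE 0.19, adjusted p = 0.730). At the dimmer the arrays read 1040.3, 1553 and 1033 in BPH and 1794, 2314 and 2011.5 in BPL, with no overlap. The difference there was -0.77 (SE 0.22, unadjusted p = 0.00608 and adjusted p = 0.0962 in limma). Nsdhl, of the complex that removes the 4-methyl groups, stood below 0 at all 3 of its probe sets, -0.32, -0.50 and -0.54. The last 2, which are not the brightest, did not overlap and had an unadjusted p of 0.0307 and 0.0251 in limma. The smallest adjusted p was 0.191. Msmo1, the oxidase of that complex, had a difference of 0.27, and Erg28, its scaffold, one of 0.14. Hsd17b7, its keto-reductase, did not pass the filter, with intensities from 167.5 to 600.5. Ebp, the isomerase that follows, stood at 0.24. With 1 array left out Msmo1 ran from 0.13 to 0.44 and Ebp from 0.12 to 0.42. None of these passed the threshold.

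Regulators and further targets of the SREBP factors were taken from 2 lists of 29 genes, of which 17 were tested. The others, apart from Insig1, were not analysed here. Insig1, which retains the SREBP complex when sterol is plentiful, was below the floor on all 6 arrays. Of the 17 genes 2 were called, both lower in BPH (background 0.96% of all tested probe sets), and both make fatty acids rather than sterols. Fasn, the fatty acid synthase, read 20265.5, 15543 and 13341 in BPH and 61498, 114879 and 53403 in BPL, a difference of -2.16 (SE 0.28, adjusted p = 0.00605). Elovl6, a fatty acid elongase, was not called at its dimmer probe set (-1.23, adjusted p = 0.111). At the brighter it had a difference of -1.68 (SE 0.33, adjusted p = 0.0376). Its call ended when any of BPH 1 (adjusted p = 0.102), BPH 2 (0.101), BPH 3 (0.159) or BPL 1 (0.0889) was left out, and its adjusted p lay between 0.00734 and 0.361 across all alternatives. For Fasn those limits were 0.0025 and 0.135, and within station 1 its difference was -2.44 (adjusted p = 0.135). Both peaked on BPL 2, where the brown fat sum was also highest, and the part of that tissue was not tested. The count of 2 was 1 without BPH 1, BPH 3 or BPL 1, and at most 3 without any other array.

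The remaining named genes of these lists were not called and pointed both ways. Scd1, the stearoyl-CoA desaturase, stood at -1.24 (SE 0.27, adjusted p = 0.0502, between 0.0160 and 0.559 across the alternatives). A second tested probe set of Scd1 stood at -0.88 (adjusted p = 0.0826). Nr1h3, the liver X receptor alpha that senses oxysterols, stood at -0.70 (SE 0.21, adjusted p = 0.117). Srebf1, the SREBP gene tied mostly to fatty acid synthesis, was named after its values were seen. It read 11638, 12608 and 12774 in BPH and 14824.5, 21345 and 14547 in BPL, with a difference of -0.43 (SE 0.16, adjusted p = 0.190). Higher in BPH without passing were Acly, which makes the acetyl-CoA that feeds both pathways (0.64, SE 0.23, adjusted p = 0.167), and Fads1, a fatty acid desaturase (0.56, SE 0.16, adjusted p = 0.106). So were Cyb5a, the cytochrome b5 that passes electrons to several lipid-modifying enzymes (0.49, SE 0.11, adjusted p = 0.0582), and Npc1, which moves cholesterol out of lysosomes (0.37, SE 0.12, adjusted p = 0.129). Scd1, Nr1h3 and Srebf1 were highest on BPL 2, as was the brown fat sum, whose part was not tested. Without both arrays that carried muscle transcripts Scd1 stood at -0.89 at its brighter probe set, Nr1h3 at -0.41 and Srebf1 at -0.21. Acly, Fads1, Cyb5a and Npc1 stood at 0.57, 0.42, 0.46 and 0.29 there.

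Star and the steroid enzymes Cyp11a1, Cyp21a1 and Hsd3b1 overlapped between the strains at their brightest probe sets. The difference was -0.01 for Star (SE 0.13), -0.06 for Cyp11a1, which cleaves the side chain of cholesterol (SE 0.13), 0.06 for Cyp21a1 (SE 0.17) and 0.03 for Hsd3b1 (SE 0.14). On BPH 1, where most sterol enzymes were lowest, Star (100622), Hsd3b1 (134039) and Cyp21a1 (164653) were at their highest of the 6 arrays at these probe sets. Cyp11a1 was highest on BPL 1 (93027). The dimmer tested probe sets of Star and Hsd3b1 were highest on BPH 2 (17602 and 29094).

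**Figure D4:**
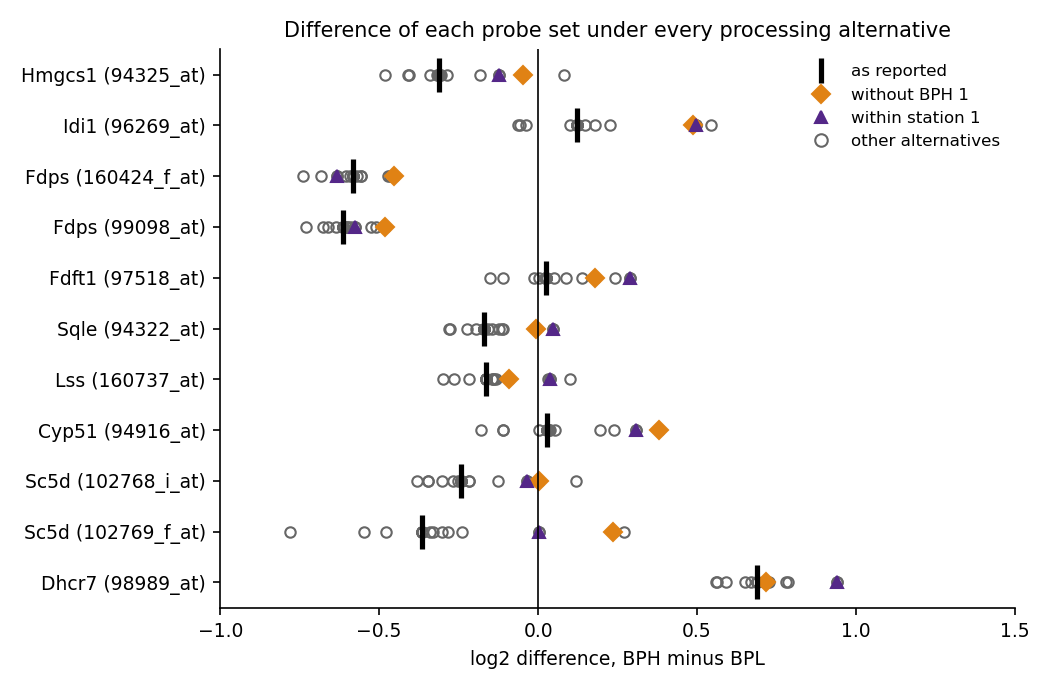
Log2 difference, BPH minus BPL, of each tested probe set as reported (black bar) and under each processing alternative (open circles), with the value without BPH 1 (orange diamond) and within station 1 (purple triangle). Dhcr7 stays above 0 (0.56 to 0.94) and the 2 tested Fdps probe sets below 0 (-0.74 to -0.45) under every alternative run. Their arrays do not overlap between strains, so leaving arrays out could not change these signs. Every other enzyme has values on both sides of 0, and the 2 dim Fdps probe sets are not shown.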

How the data were processed

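RNA of adrenal glands was measured on 6 Affymetrix MG_U74Av2 arrays, a chip type taken from the run files, with 3 arrays per strain as the sample titles give them. The deposited values are linear intensities, 1 per probe set and array, with equal means after trimming 2% at each end (2501.3 to 2501.5). The software and background correction behind them are not given in the sources used here. They were not scaled again. A floor was set at the table's 20th percentile (201.3), and log2 was taken. The 66 control probe sets and those with a mean log2 level under the 40th percentile of all values (668.1) were left out, which left 7293. A linear model per probe set was moderated by eBayes, with the prior variance following intensity (limma 3.58.1, R 4.3.3; two-sided). The fit was also run on simulated data with independent noise and known shifts. These hold no outlying array and no admixed tissue, so they do not test the calls made here. Means and SDs are of the deposited values, and the number of arrays limits their precision. Genes were named from the platform annotation, which gives 10855 probe sets a single gene, 396 more than 1 and 1237 no gene, and current symbols came from RefSeq GRCm38.p6 for 10839. The members and gene lists were chosen with earlier results of these data known. A further gene is represented by its brightest tested probe set. Named genes are the 9 members, the tested genes of the pathway list, the called genes and the 6 others with the smallest p of the further lists, 4 markers of steroid-producing cells, and the 2 genes most like each member. Srebf1, Insig1, Hsd17b7 and the named isoprenoid genes fall outside this rule and were chosen after their values were seen. Liver and kidney marker sums were at most 2304.1 and 2200.7 on any array. The sensitivity part names the alternatives.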

Additional observations from a re-analysis of the deposited data

How the results depend on the processing

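The alternatives were other scalings, floors, filters and variance models, blocks by replicate number or fluidics station, 1 value per gene, stricter calls, and fewer arrays. The direction of Dhcr7 and the brighter Fdps probe set held in all 20 alternatives that give a difference. That of the other bright Fdps probe set held in the 18 run on it. The arrays of these probe sets do not overlap between strains, so leaving arrays out could not change their sign. The other filters and variance models left the difference itself unchanged, so the direction held there by construction. The call count of the other pathway genes stayed at 0. Of all probe sets, 184 as reported, the count was 52 with no filter, 83 without the intensity trend, 18 with the station as a block, 7 within station 1 and 48 at an adjusted p under 0.01. It ran from 42 (without BPH 2) to 361 (without BPL 3) with 1 array left out, with 83 without BPH 1, 49 without BPH 3 and 94 without BPL 1. The count of member probe sets called was 1 (Dhcr7) with the filter at the 60th percentile, and 0 to 1 with 1 array left out, the 1 being without BPL 3. The count of regulators and targets was 4 under quantile normalization and with the 60th percentile filter, 0 with no filter, when stations were blocked and in station 1 alone, and 1 without the trend, with a gene's probe sets averaged and at an adjusted p under 0.01. It ran from 1 to 3 with 1 array left out.

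Uncalled differences changed sign as follows. Quantile normalization gave -0.012 for Fdft1. The station as a block and station 1 alone gave 0.039 for Lss, 0.048 for Sqle and 0.003 for the dimmer Sc5d probe set. Without both arrays that carried muscle transcripts the values were 0.082 for Hmgcs1, 0.100 for Lss, 0.118 and 0.270 for Sc5d, and 0.103 for Tm7sf2. With 1 array left out, Hmgcs1 ran from -0.48 to -0.05 and Sqle from -0.28 to -0.01 with no change of sign. Cyp51 ran from -0.18 to 0.38, Fdft1 from -0.15 to 0.18, Idi1 from -0.064 to 0.49 and Lss from -0.30 to 0.03. Sc5d ran from -0.38 to 0.002 and from -0.78 to 0.24, and Tm7sf2 from -0.30 to 0.032. The cause was not tested.

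The replicate numbers are shared by the strains but name no common litter or day. Deviations of same-numbered arrays correlated at -0.219, -0.084 and 0.012, and those of differently numbered arrays at -0.085 to 0.156. Deviations from a mean of 3 arrays sum to 0 within a strain, so these values constrain one another. They cannot show whether the numbers pair the samples. With the replicate number as a block 124 probe sets were called, 0 of them members.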

Other observations

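The isoprenoid branch, which takes farnesyl diphosphate toward protein prenylation and dolichol, was read from 14 genes, of which 8 had a probe set and 6 were tested. In limma 0 were called (2.52% of all tested probe sets) and 0 had an unadjusted p under 0.05 (19.3% of all). The differences ran from -0.09 to 0.48 with a median of 0.14. The largest, that of Rabggta (SE 0.43), came with 1 low array, BPL 1 at 383.4, against 1030.8 to 1282.6 on the others. Fnta, the shared alpha subunit of the prenyltransferases, read 8762, 7912 and 7097 in BPH and 8284, 8451 and 8447 in BPL. Rce1, which trims prenylated proteins, read 2669, 2724 and 2654 in BPH and 2371, 2044.5 and 2731 in BPL, so that both genes overlapped between the strains. Icmt, which methylates the trimmed end, had 1 low array, BPL 3 at 365.8, against 1034.5 to 1711 on the others. Ggps1, which lengthens farnesyl to geranylgeranyl diphosphate, was not tested, since both of its probe sets lay below the filter, with intensities from 209.9 to 1027. Fntb was below the floor on every array.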
